A study of Mus musculus with 13 samples.

Results

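Guidance ligands and receptors were examined in H3K27ac maps of mouse melanoma lines. The set held the 60 protein-coding genes, of 21938 in the mm10 annotation, whose symbols name a semaphorin, a plexin of class A to D, an ephrin or an Eph receptor, together with Nrp1, Nrp2, Slit1 to Slit3 and Robo1 to Robo4. Members were taken by symbol, and the rule used no measured value. H3K27ac is the acetylation of lysine 27 on histone H3, a mark of active promoters and enhancers. Each of 9 lines contributed 1 deposited list of ChIP-seq peaks for this mark, and no read counts were at hand, so sequencing depth is unknown.

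Every line came from a mouse melanoma driven by an activated NRAS transgene under the tyrosinase promoter (Tyr::NRAS), which acts in the melanocyte lineage, in a Cdkn2a+/- background with both Cdh1 alleles floxed (Cdh1 F/F). The ΔEcad lines also carried Tyr::CreA and had thereby lost Cdh1, the gene of E-cadherin, whereas the Ecad lines had no Cre and kept it. Ma_1007 and Ma_1181 were male Ecad lines, Ma_1014 and Ma_1039 female Ecad lines, Ma_1062 and Ma_1456 male ΔEcad lines, and Ma_1057, Ma_1064 and Ma_1069 female ΔEcad lines. Lines were the replicates, and no line was mapped more than 1 time, so the spread within a group mixes tumours, cultures and libraries. The age of the mice was not used here, and the lists give no check of the Cdh1 deletion itself.

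Semaphorins are ligands that act mainly through plexins, and the secreted class 3 members need the neuropilins Nrp1 or Nrp2 to bind class A plexins. Ephrins are cell-surface ligands of the Eph receptor tyrosine kinases, so their signals pass between touching cells. Slit proteins are secreted and are read by Robo receptors. These systems steer axons and neural crest cells, the embryonic source of melanocytes, and several members influence the motility of tumour cells.

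The lists held 20741 to 41663 peaks and covered 29.5 to 67.2 Mb. Ma_1007 had the longest list and Ma_1069 the shortest, and the lines of the female ΔEcad group covered 29.5, 34.2 and 39.5 Mb against 37.1 to 67.2 Mb in the other lines, so lists and groups differed in extent before any gene was considered. Where no peak is listed the signal did not reach the caller's threshold, which is not absence of the mark, and fewer cells with the mark cannot be told apart from less mark per cell. A gene was called where a peak overlapped the 1 kb on either side of any of its transcription start sites (TSS). Of 7 melanocyte lineage genes, 6 were called in all 9 lists and Tyrp1 in 6, and no keratinocyte or immune marker was called. Of 4 fibroblast and 4 endothelial markers only Pdgfra and Tek were called, both in Ma_1007 alone. Gene-body coverage of some markers differed between the groups, as it did for many other genes. The 7 melanocyte genes together covered 78.0 to 97.5 kb in the female ΔEcad lines and 87.6 to 136 kb in the others, with Sox10 and Dct lower (exact permutation p = 0.0119 and 0.0357) and Mlana higher (p = 0.0238). Over their 4 genes each, fibroblast markers covered 0 to 0.643 kb in ΔEcad and 0.612 to 2.96 kb in Ecad lines, and endothelial markers 0 to 3.07 and 2.17 to 7.75 kb, with Pdgfra and Pecam1 lower in ΔEcad lines (exact permutation p = 0.0317 and 0.0397), while Col1a1, Dcn and Kdr had no peak in any list. Keratinocyte markers covered at most 1.41 kb and immune markers at most 1.82 kb. At an exact permutation p under 0.05, 20.2% of all genes tested were lower and 1.57% higher in the female ΔEcad lines. In the comparison by genotype 15.1% were lower and 0.22% higher in ΔEcad lines. The part of the marker differences in the results was not tested. Xist was called in the 5 female lines and 4 Y-linked genes in the 4 male lines.

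Semaphorins of the membrane-bound classes and plexins carried most of the promoter peaks, and Eph receptors carried few. Of the 60 members, 7 were called in all 9 lists (11.7%, against 21.1% of all protein-coding genes), 28 in 1 to 8 lists (46.7% against 31.8%) and 25 in none (41.7% against 47.1%). The plot of calls by gene and line shows the families side by side. The 7 were Sema4b, Sema4c, Sema4d and Sema6a, the plexins Plxnb2 and Plxnc1, and the ephrin Efna5. Plxnc1 is the receptor of Sema7a, and Plxnb2 one of the receptors of class 4 semaphorins. Of 13 membrane-bound semaphorins 4 were called in all lists and 5 in none, and of 9 plexins 2 were called in all and only Plxna4 in none. Of 7 secreted semaphorins none was called in all lists and 2, Sema3d and Sema3g, in none. Of 9 EphA receptors 7 were called in no list, and Epha2 and Epha5 were called in 1 and 3 lists. Of 5 EphB receptors Ephb1 and Ephb3 were called in none, Ephb2 in 1 list and Ephb4 and Ephb6 in 2 lists each. Among ephrins, Efna2, Efna3, Efna4 and Efnb3 were called in none, Efnb1 in 2 lists, Efna1 in 4 and Efnb2 in 6. Slit1, Slit3, Robo3 and Robo4 were called in none, Robo2 in 1 list, Robo1 in 5 and Slit2 in 6. Nrp1 was called in 7 lists and Nrp2 in 2.

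**Figure D1:**
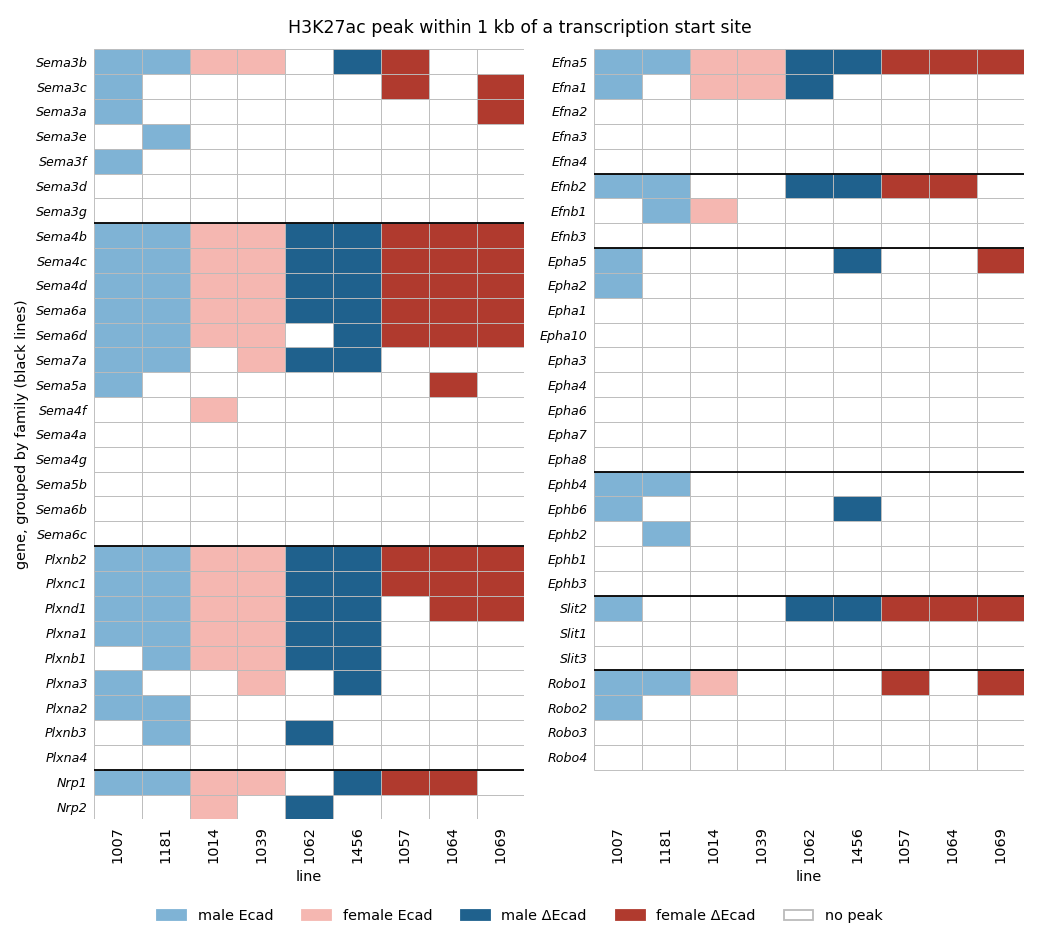
Promoter calls of the 60 genes (rows) in the 9 lines (columns, by Ma number). A filled cell is an H3K27ac peak within 1 kb of a TSS, coloured by group. Black lines part the families: secreted semaphorins, membrane-bound semaphorins, plexins and neuropilins on the left, and A-type ephrins, B-type ephrins, EphA receptors, EphB receptors, Slit ligands and Robo receptors on the right. The 7 full rows are Sema4b, Sema4c, Sema4d, Sema6a, Plxnb2, Plxnc1 and Efna5.

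The number of members called was 28 and 22 in the male Ecad lines, 18 and 16 in the female Ecad, 16 and 19 in the male ΔEcad, and 14, 13 and 14 in the female ΔEcad lines. All protein-coding genes followed a like order, from 48.6% and 43.8% in the male Ecad lines to 30.2%, 33.4% and 25.3% in the female ΔEcad lines. The members' share lay below that of all genes in each line, by the least in Ma_1007 (46.7% against 48.6%) and Ma_1069 (23.3% against 25.3%).

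**Figure D2:**
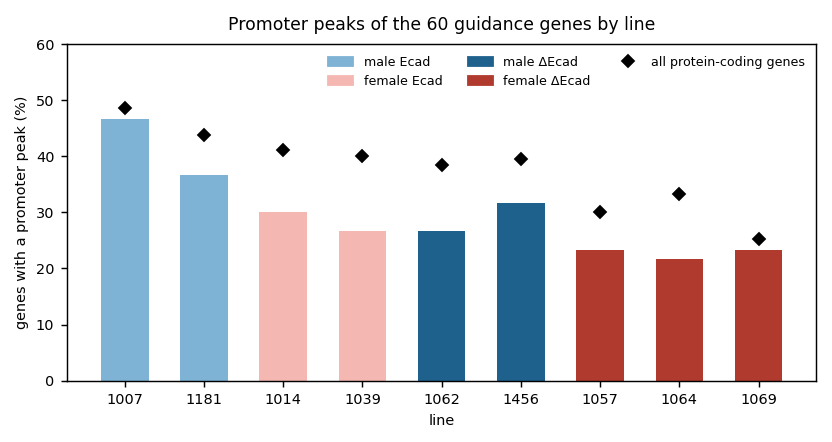
Share of the 60 genes with a promoter peak in each line (bars, coloured by group) and the same share over all protein-coding genes (diamonds), in percent. Bars run from 21.7% in Ma_1064 to 46.7% in Ma_1007, and each stands below its diamond.

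Start sites within 1 gene did not behave alike. Sema4c had a peak at its protein-coding start in all 9 lists, and that peak stood at or above the 90.4 percentile of its list (100 being the strongest −log10 q) in each of them. Plxnc1 also had strong peaks in all lists (84.2 to 99.7 percentile), but in 5 of the 9 they lay only at starts of transcripts not annotated as protein-coding, and its coding start was called in Ma_1007, Ma_1181, Ma_1014 and Ma_1062. For Sema4d, the ligand of Plxnb1, the coding starts were called in Ma_1181 and Ma_1062 alone, and the other 7 calls lay at internal starts. The single Sema4f call, in Ma_1014, also lay at a non-coding start. With protein-coding starts only, 5 members were called in all lists and 26 in none. Efna5, Plxnb2, Sema4b, Sema4c and Sema6a were the 5 that kept all 9 calls.

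Members called in 1 list fell mostly to the male Ecad lines. Epha2, Robo2 and Sema3f were called in Ma_1007 only, Sema3e and Ephb2 in Ma_1181 only, and Sema4f in Ma_1014 only. Plxnd1, the receptor of Sema3e, was called in every list but Ma_1057, and Sema6d in every list but Ma_1062. None of these 6 peaks reached the middle of its list. They stood at the 2.00 percentile for Epha2, 6.93 for Sema4f, 23.9 for Sema3e, 33.4 for Robo2, 47.3 for Ephb2 and 48.6 for Sema3f.

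Member promoters without a peak were richer in GC and CpG than promoters without a peak over all protein-coding genes. RefSeq promoters (GRCm38.p6, 250 bases before to 50 after a start) were at hand for 53 of the 60 members, in 69 windows. Windows with no peak in any list had a median GC content of 61.7% in the members (n = 45) and 51.7% in all protein-coding genes (n = 10672). A CpG observed over expected ratio above 0.6 was found in 44.4% of these member windows and 23.6% of those of all genes. The windows of all genes include the members, and the 45 member windows came from 34 genes. Windows called in 1 to 8 lists were closer, with 77.3% of 22 member windows and 76.0% of 7061 windows overall. These shares were not tested. Plxna4, Plxna1, Sema3b, Sema3f, Efnb3, Sema6a and Slit1 were not among the matched promoters. The promoters of Efna5, called in all lists at gene level, and of Sema7a, Plxnb1 and Slit2, whose calls differ between groups below, are shown 5′ to 3′ on the gene's strand, with CpG dinucleotides in capitals.
Efna5 (chr17:62881268-62881567, minus strand, GC 73.3%, 38 CpG): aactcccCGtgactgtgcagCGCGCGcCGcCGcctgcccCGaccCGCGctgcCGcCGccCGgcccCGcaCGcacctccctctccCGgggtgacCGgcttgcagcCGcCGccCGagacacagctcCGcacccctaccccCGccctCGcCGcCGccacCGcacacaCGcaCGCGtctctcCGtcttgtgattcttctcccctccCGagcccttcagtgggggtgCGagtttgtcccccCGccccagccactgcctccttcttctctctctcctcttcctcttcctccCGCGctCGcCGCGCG
Sema7a (chr9:57939862-57940161, plus strand, GC 67.3%, 23 CpG): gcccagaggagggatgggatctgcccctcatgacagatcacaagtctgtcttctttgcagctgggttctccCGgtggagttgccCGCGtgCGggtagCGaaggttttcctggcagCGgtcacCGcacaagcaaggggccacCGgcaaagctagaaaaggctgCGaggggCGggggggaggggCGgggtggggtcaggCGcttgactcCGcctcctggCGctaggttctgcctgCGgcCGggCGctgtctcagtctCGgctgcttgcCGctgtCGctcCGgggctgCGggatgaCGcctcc
Plxnb1 (chr9:109095186-109095485, plus strand, GC 74.7%, 36 CpG): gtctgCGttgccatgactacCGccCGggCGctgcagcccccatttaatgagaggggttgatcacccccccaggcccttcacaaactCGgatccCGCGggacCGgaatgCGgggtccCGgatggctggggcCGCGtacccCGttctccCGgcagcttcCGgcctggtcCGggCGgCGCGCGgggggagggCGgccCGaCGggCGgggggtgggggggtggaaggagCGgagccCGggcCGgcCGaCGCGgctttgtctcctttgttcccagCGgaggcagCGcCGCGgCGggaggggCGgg
Slit2 (chr5:47982905-47983204, plus strand, GC 68.0%, 30 CpG): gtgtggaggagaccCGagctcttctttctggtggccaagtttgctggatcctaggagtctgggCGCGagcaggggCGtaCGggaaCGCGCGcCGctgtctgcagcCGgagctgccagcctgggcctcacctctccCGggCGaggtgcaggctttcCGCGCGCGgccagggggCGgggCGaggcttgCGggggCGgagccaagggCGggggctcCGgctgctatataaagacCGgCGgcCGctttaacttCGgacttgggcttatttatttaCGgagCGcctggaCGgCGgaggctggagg
All 4 are CpG-rich, and a peak overlapped the printed window in 8, 3, 1 and 1 of the 9 lists in this order. The Slit2 window, rich in CpG, therefore had a peak in Ma_1456 alone. Letters of the TEAD type (GGAATGT or GGAATGC, either strand) were found in 8.70% of the 69 member windows and 6.39% of 20150 windows overall. Letters of the MITF-type E-box (TCACGTG or TCATGTG) were found in 4.35% and 7.28%, of the SOX type (AACAAAG or AACAATG) in 7.25% and 7.89%, of the TCF/LEF type (CTTTGAT or CTTTGAA) in 4.35% and 7.47%, and of the AP-1 type (TGACTCA or TGAGTCA) in 2.90% and 4.65%. Both strands were searched for every type, no letters of one type are those of another, and the shares rest on 2 to 6 member windows each and were not tested. The printed Plxnb1 window holds TEAD-type and SOX-type letters at positions 103 and 259 from its 5′ end.

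The study asked what loss of E-cadherin does in female and male melanoma, so the female ΔEcad lines were set against the other 6. In these lines the plexins Plxna1 and Plxnb1 and the semaphorin Sema7a lacked a promoter peak. Plxna1, a receptor of class 3 and class 6 semaphorins, had a promoter peak in 0 of the 3 female ΔEcad lines and in 6 of the 6 others (Fisher's exact test, two-sided as all tests here, p = 0.0119, the smallest the design allows; adjusted p = 0.486 over all genes). Plxnb1 had one in 0 of 3 and 5 of 6 lines, as did Sema7a (Fisher's exact p = 0.0476 each). No member passed the threshold with more calls in the female ΔEcad lines. By the share of lines called, whatever the p, 6 members were higher in this group and 20 lower. Over all genes 4.36% were lower and 0.105% higher at the same threshold, so 3 of 60 members lower is close to the background, and no gene passed after adjustment.

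Plxna1 lost its promoter peak but not its gene-body peaks. The region at its start (chr6:89361242-89362490, 1249 bp) had a peak of 757 to 1147 bp in each of the other 6 lines, at the 24.9 to 73.0 percentile, and none in Ma_1057, Ma_1064 and Ma_1069. Coverage of the whole Plxna1 body (46.3 kb on chromosome 6) was 4.18 and 7.93 kb in male Ecad, 10.2 and 8.92 kb in female Ecad, 6.39 and 7.92 kb in male ΔEcad lines, and 5.22, 5.62 and 5.61 kb in Ma_1057, Ma_1064 and Ma_1069. The female ΔEcad lines thus lay within the range of the others, and 2 regions 12.3 and 17.2 kb from the gene start had a peak in every list.

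Plxnb1 covered 0 and 3.54 kb in the male Ecad, 2.32 and 0.809 kb in the female Ecad, 2.80 and 3.12 kb in male ΔEcad lines, and 0, 0.419 and 0 kb in Ma_1057, Ma_1064 and Ma_1069. Ma_1007, the longest list, was the other line with no Plxnb1 peak. Sema7a, a membrane-anchored semaphorin, covered 3.99 and 2.71, 1.39 and 2.14, 2.95 and 0.932, and 0, 2.01 and 0 kb in the same order of groups. Ma_1064 therefore kept a Sema7a peak inside the gene while its promoter was not called. Both calls passed in 3 of 14 alternative settings. Most of these settings leave out 1 line, and with these counts most such losses miss the threshold by group size alone. Plxna1 was the 1 member that passed after any 1 female ΔEcad line was left out (Fisher's exact p = 0.0357).

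Compared by genotype alone, ΔEcad against Ecad lines, Slit2 was the 1 member whose promoter calls separated, and it was called more often in ΔEcad lines. Slit2, the ligand of Robo1 and Robo2, was called in 5 of 5 ΔEcad and 1 of 4 Ecad lines, the latter being Ma_1007 (Fisher's exact p = 0.0476, adjusted p = 1.00), and it passed in 4 of 14 alternative settings. As for Plxnb1 and Sema7a, most settings that leave out 1 line miss the threshold here by group size alone. At this threshold 0.0273% of all genes were higher and 2.99% lower in ΔEcad lines, and no member was lower. The protein-coding start of Slit2 was called in Ma_1456 only. In Ma_1007, Ma_1057, Ma_1064 and Ma_1069 the call lay 262 kb into the gene at the start of a transcript not annotated as coding, and in Ma_1062 at another such start. The Ma_1062 peak ran from 195 to 199 kb into the gene. Every list had a peak overlapping that one, also Ma_1181, Ma_1014 and Ma_1039, which were not called. With coding starts only the difference did not pass (Fisher's exact p = 1.00). The window around the summit of the internal peak 262 kb into the gene in Ma_1057, on the plus strand, is CpG-poor, unlike the printed Slit2 promoter.
Slit2 internal peak (chr5:48244851-48245050, GC 36.5%, 1 CpG): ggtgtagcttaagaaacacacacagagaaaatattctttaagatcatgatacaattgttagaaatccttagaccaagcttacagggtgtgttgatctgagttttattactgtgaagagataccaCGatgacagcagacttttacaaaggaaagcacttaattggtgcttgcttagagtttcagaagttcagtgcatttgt

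Compared by sex, Sema7a was called in 1 of 5 female and 4 of 4 male lines (Fisher's exact p = 0.0476, adjusted p = 1.00), and it was the 1 member past the threshold. Over all genes 1.6% were lower and 0.0273% higher in female lines. Within the female lines, Slit2 was called in all ΔEcad and no Ecad line, and Efna1, Plxna1 and Plxnb1 in all Ecad and no ΔEcad line. Over all genes these patterns took 0.315% and 5.73%. Within the male lines no member was called in the ΔEcad lines alone (0.114% of all genes), and Ephb4, Plxna2 and Robo1 were called in the Ecad lines alone (3.45%). Within a sex the lines are too few for Fisher's exact test to reach the threshold, and the difference between the sexes was not tested.

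Of the 60 members, 14 had a gene-body peak in all 9 lists (23.3%, against 23.5% of all protein-coding genes) and 13 in none (21.7% against 40.0%). Of the 25 members with no promoter call, 13 had a gene-body peak in at least 1 list (52.0%, against 17.5% of all genes with no promoter call), with gene length not matched, and Sema3d had one in every list, covering 5.34 to 18.0 kb. Efna5, the ligand of EphA receptors, and Sema6a, a ligand of class A plexins, covered most. Together they held 18.9% of the members' covered bases in Ma_1456, 21% in Ma_1014 and 30.9 to 41.6% in the other lines.

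Over the gene bodies of the members the lists gave 274 merged regions, of which 195 were intronic, 33 met an exon and 46 lay within 1 kb of a TSS. In all 9 lists were 28 regions (10.2%, against 16.9% of 38133 regions over all protein-coding genes), and in 1 list 101 (36.9% against 30.6%). Of the regions at a TSS 23.9% were in all lists, and of the intronic ones 5.64%. Ma_1007 alone held 40 of the 101 regions seen in 1 list. Efna5 had 29 regions, Robo1 23 and Sema6a 17. The widest single peak over a member was 24.1 kb, in Sema6a in Ma_1181.

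Robo1, a receptor of Slit2, had higher gene-body coverage in the female ΔEcad lines than in any other line. It covered 9.51 and 4.69 kb in the male Ecad, 6.93 and 1.56 kb in the female Ecad, 1.28 and 1.78 kb in male ΔEcad lines, and 15.0, 9.57 and 18.0 kb in Ma_1057, Ma_1064 and Ma_1069. Each female ΔEcad line was above all others, although Ma_1064 exceeded Ma_1007 by little. As a share of the 738 kb gene this was 1.92% ± 0.578 (SD, n = 3) against 0.581% ± 0.458 (SD, n = 6; exact permutation test, p = 0.0119, adjusted p = 0.109). It passed in all 14 alternative settings (p = 0.0119 to 0.0357, exact). The peaks of the female ΔEcad lines lay mostly from an internal protein-coding start onwards, 355 kb into the gene (chr16:72308306-73046095), where 18 of the 23 regions lay. Of these 18 regions, Ma_1057, Ma_1064 and Ma_1069 had a peak in 14, 7 and 18. Ma_1007 had a peak in 7, Ma_1181 and Ma_1014 in 4 each, and Ma_1039, Ma_1062 and Ma_1456 in none, a split of the gene that was chosen after its values were seen.

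Sema5a, a transmembrane semaphorin with thrombospondin repeats, also covered more in the female ΔEcad lines. It covered 4.82 and 1.64 kb, 1.99 and 1.84 kb, 3.57 and 1.37 kb, and 5.45, 13.6 and 2.66 kb in the groups in the same order. The peak region at its start also holds the starts of the non-coding genes Snhg18 and Snord123. Ma_1064 was far above the rest and Ma_1069 fell inside the range of the other lines. The share of the gene was 1.60% ± 1.26 (SD, n = 3) against 0.562% ± 0.301 (SD, n = 6; exact permutation test, p = 0.0476, adjusted p = 0.219), and it passed in 7 of 14 settings. Of the 47 members tested 2 were higher and none lower, where 1.57% of 13171 genes were higher and 20.2% lower. This balance turned with an exact rank-sum test, by which Robo1 was higher, Ephb2, Sema3e and Sema4d were lower and Sema5a did not pass. Over all genes 1.35% were higher and 21.9% lower by that test. The median difference was −0.479 percentage points in the members and −1.43 over all genes tested. When coverage was divided by the total length of each list, 5.47% of all genes were higher and 10.8% lower, and the members higher were Epha6, Robo1, Sema4c, Sema5a and Sema6d. Without Ma_1007 the members past the threshold were 6, with Efna5, Robo1, Sema3a, Sema5a and Sema6d higher and Plxnb1 lower. Of 12671 genes tested without that line 2.45% were higher and 16.1% lower.

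**Figure D3:**
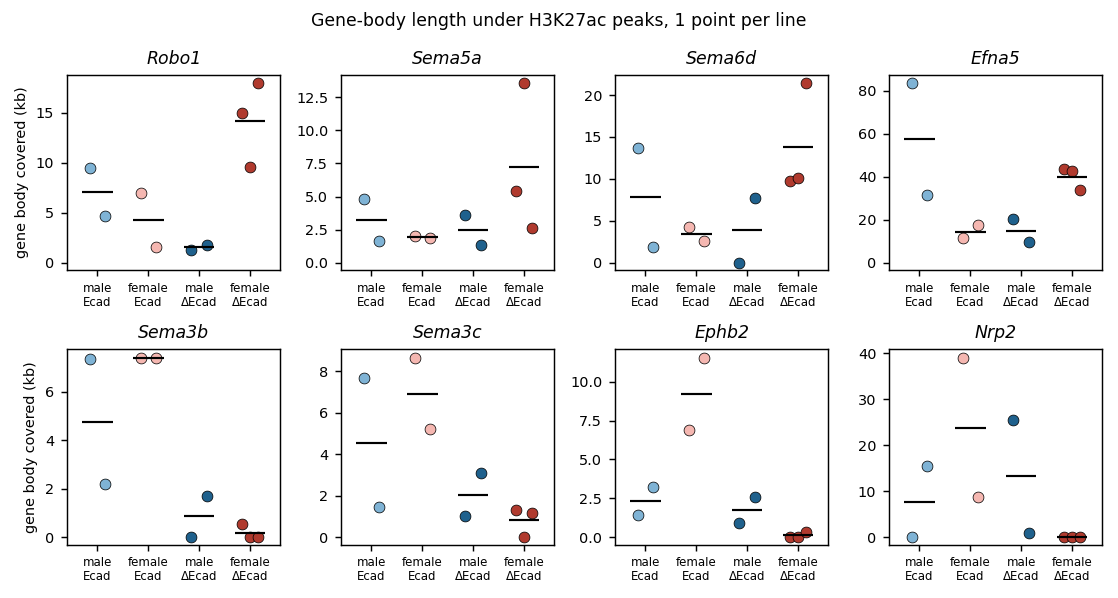
Length of gene body under H3K27ac peaks in kb for 8 genes (panels), 1 point per line, by group (n = 2, 2, 2 and 3), with the group mean as a bar. For Robo1 the 3 female ΔEcad lines (9.57 to 18.0 kb) lie above all other lines, and for Sema3b the 4 Ecad lines (2.2 to 7.40 kb) lie above all ΔEcad lines.

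Ephb2, Sema3e and Sema4d covered less in all 3 female ΔEcad lines than in any other line, without passing the permutation test. Sema4d covered 2.22 and 13.5 kb, 6.04 and 3.58 kb, 7.28 and 2.83 kb, and 1.63, 1.35 and 1.10 kb in the same order of groups (1.26% ± 0.247, SD, n = 3, against 5.47% ± 3.89, SD, n = 6; exact permutation p = 0.0952). For Ephb2 the range was 0 to 0.156% against 0.462 to 6.12% (exact permutation p = 0.0952), and for Sema3e 0 to 0.770% against 0.802 to 3.99% (exact permutation p = 0.143). Groups did not overlap with the female ΔEcad lines lower in 17.2% of all genes tested and with them higher in 0.759%, against 3 and 1 of the 47 members. In the comparison by genotype 5.82% of genes lay lower and 0.0683% higher in ΔEcad lines without overlap, and by sex 5.11% lower and 0.167% higher in female lines, where among the members only Sema3b was lower in ΔEcad lines and none parted by sex.

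Sema6d, another semaphorin of the transmembrane class 6, showed a like order without passing. It covered 13.7 and 1.89 kb, 4.21 and 2.61 kb, 0 and 7.76 kb, and 9.76, 10.1 and 21.4 kb (2.38% ± 1.14, SD, n = 3, against 0.870% ± 0.863, SD, n = 6; exact permutation p = 0.0714), and Ma_1007 was the 1 other line in the range of the female ΔEcad lines. Sema4c covered 9.40 and 3.35 kb, 4.25 and 4.38 kb, 4.20 and 3.77 kb, and 7.14, 9.07 and 4.20 kb of a 9.71 kb gene, the highest share of any member, with a difference of 19.7 percentage points that did not pass (exact permutation p = 0.381). The Sema4c gene lies at chr1:36548639-36558349. Its promoter region also holds starts of the genes Ankrd39 and D430040D24Rik, so the peaks there cannot be given to 1 gene. Nrp2, the co-receptor of Sema3f, had no peak in the 3 female ΔEcad lines and in Ma_1007. It covered 15.4 kb in Ma_1181, 39.0 and 8.63 kb in the female Ecad and 25.4 and 0.955 kb in the male ΔEcad lines, and the difference did not pass (exact permutation p = 0.143). Nrp1, its paralogue, had peaks in all 9 lists.

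Some regions were called in every list of 1 group and in no other. Regions in Robo1 and Sema6d were called in the 3 female ΔEcad lists alone, a pattern of 0.404% of all gene-body regions. Regions in Ephb2, Plxna1, Plxnc1 and Slit1 were called in the other 6 lists alone (1.73%). None of the members' regions parted ΔEcad from Ecad lines (0.00524% of regions in ΔEcad alone, 0.587% in Ecad alone) or female from male lines (0.0236% and 0.191%). The Robo1 region (chr16:72912519-72914467) lay in an intron 605 kb from the gene start, with peaks of 1872, 1512 and 919 bp in Ma_1057, Ma_1064 and Ma_1069 at the 53.6, 33.0 and 22.5 percentile. The Sema6d region (chr2:124594119-124596201) lay in an intron 505 kb from the start, at the 65.6, 33.0 and 82.8 percentile in the same lines. The intronic Ephb2 region (chr4:136710890-136713325) and Slit1 region (chr19:41683414-41685679) reached the 35.8 to 89.2 and 39.5 to 88.1 percentile in the other 6 lines. The 200 bases around the summit of the strongest peak of each intronic region are shown on the plus strand, with CpG dinucleotides in capitals. These regions were picked because their calls parted the groups, and their part in the coverage differences was not tested.
Robo1 (chr16:72913042-72913241, summit of Ma_1057, GC 39.5%, 3 CpG): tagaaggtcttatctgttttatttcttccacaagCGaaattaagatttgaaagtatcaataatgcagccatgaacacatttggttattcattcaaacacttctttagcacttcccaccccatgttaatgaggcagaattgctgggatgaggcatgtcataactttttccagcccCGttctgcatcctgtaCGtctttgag
Sema6d (chr2:124594949-124595148, summit of Ma_1069, GC 36.5%, 0 CpG): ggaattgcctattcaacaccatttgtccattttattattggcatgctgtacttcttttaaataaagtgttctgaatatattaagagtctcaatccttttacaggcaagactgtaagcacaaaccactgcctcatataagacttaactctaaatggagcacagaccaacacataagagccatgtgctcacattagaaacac
Ephb2 (chr4:136712165-136712364, summit of Ma_1039, GC 46.0%, 8 CpG): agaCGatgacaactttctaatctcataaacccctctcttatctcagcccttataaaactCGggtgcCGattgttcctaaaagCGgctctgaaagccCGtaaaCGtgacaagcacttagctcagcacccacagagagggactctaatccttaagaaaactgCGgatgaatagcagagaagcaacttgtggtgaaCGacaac
Slit1 (chr19:41684225-41684424, summit of Ma_1007, GC 58.5%, 1 CpG): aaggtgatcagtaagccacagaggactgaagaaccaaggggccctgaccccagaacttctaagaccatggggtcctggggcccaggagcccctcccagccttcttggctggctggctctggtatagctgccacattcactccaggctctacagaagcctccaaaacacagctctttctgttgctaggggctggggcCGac
None of the 4 windows held the letters of the 5 motif types. Over all 38133 gene-body regions such windows held them in 3.24% (AP-1 type) to 7.86% (SOX type) of cases. All 4 windows, of 200 bases, had fewer CpG than any of the 300-base promoters printed above. By the CpG observed over expected ratio the Ephb2 window (0.769) lay above the Sema7a promoter (0.690). The Robo1, Sema6d and Slit1 windows (0.390, 0 and 0.0587) lay below every printed promoter.

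**Figure D4:**
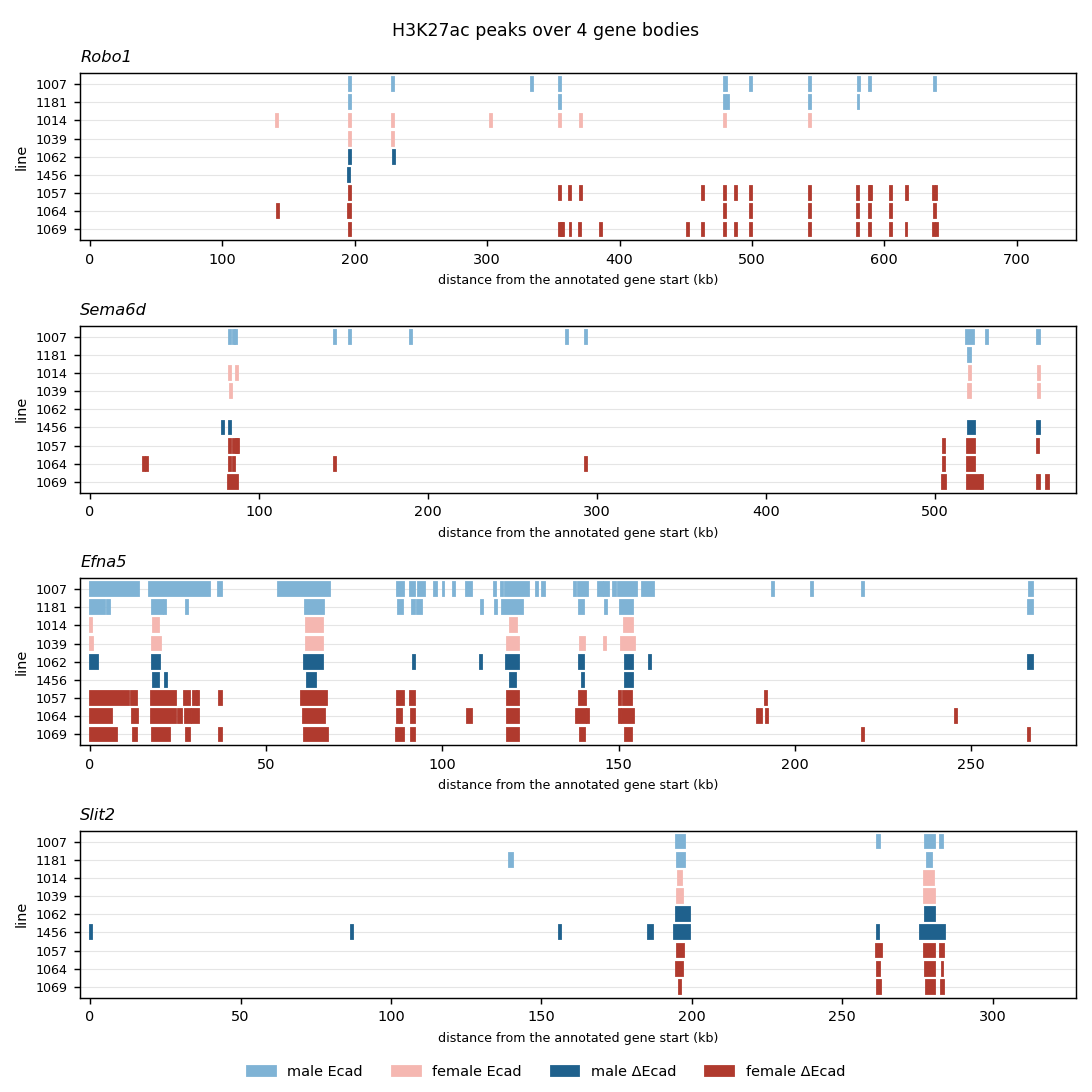
H3K27ac peaks along Robo1, Sema6d, Efna5 and Slit2 by distance from the annotated gene start in kb, 1 row per line, coloured by group (peaks narrower than 0.2% of the gene are drawn at that width). In Robo1 and Sema6d the regions 605 and 505 kb from the start hold peaks in Ma_1057, Ma_1064 and Ma_1069 alone, and the Efna5 peaks of Ma_1007 are the longest.

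Between ΔEcad and Ecad lines, Sema3b, Sema3c and Ephb2 covered less of their genes in ΔEcad lines. Sema3b, a secreted semaphorin, covered 7.34 and 2.2 kb in the male Ecad, 7.39 and 7.40 kb in the female Ecad, 0 and 1.70 kb in male ΔEcad lines, and 0.533, 0 and 0 kb in Ma_1057, Ma_1064 and Ma_1069. All 4 Ecad lines were above all 5 ΔEcad lines. This was 3.87% ± 6.39 (SD, n = 5) of the 11.6 kb gene in ΔEcad and 52.6% ± 22.4 (SD, n = 4) in Ecad lines (exact permutation test, p = 0.00794, the smallest the design allows; adjusted p = 0.220), and it passed in all 14 settings (p = 0.00794 to 0.0286, exact). The gene lies in a stretch on chromosome 9 where peaks of all 9 lists merged into 1 region of 12.4 kb that runs past the gene, so peaks beside Sema3b were present in the lines that had none on it.

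Sema3c, a secreted semaphorin that binds both neuropilins, covered 7.66 and 1.44 kb, 8.64 and 5.20 kb, 1.02 and 3.07 kb, and 1.29, 0 and 1.17 kb. The male lines Ma_1181 and Ma_1456 overlapped between the genotypes (0.840% ± 0.711, SD, n = 5, against 3.68% ± 2.06, SD, n = 4; exact permutation p = 0.0159). Ephb2, a receptor of B-type ephrins, covered 1.42 and 3.19 kb, 6.88 and 11.5 kb, 0.871 and 2.61 kb, and 0, 0 and 0.294 kb. The female lines were far apart, and the male lines overlapped (0.400% ± 0.581, SD, n = 5, against 3.06% ± 2.37, SD, n = 4; exact permutation p = 0.0159). Both passed in 10 of 14 settings. Leaving out any 1 of the 3 female ΔEcad lines left Sema3b alone past the threshold. In all, 3 of 47 members were lower and none higher, against 15.1% and 0.22% of all genes. With coverage divided by list length these shares became 7.99% and 2.4%, the same 3 members were lower and Slit2 was higher. Slit2 covered 7.83 and 5.28 kb, 5.04 and 5.50 kb, 7.67 and 17.0 kb, and 9.01, 7.19 and 6.13 kb.

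Members with the largest differences that did not pass included Sema6a, which covered 43.7 and 58.6 kb, 36.4 and 35.5 kb, 45.6 and 17.4 kb, and 24.5, 21.9 and 30.3 kb. All female ΔEcad lines and Ma_1456 were below every Ecad line, and Ma_1062 was above 3 of them (21% ± 8.22, SD, n = 5, against 32.7% ± 8.00, SD, n = 4; exact permutation p = 0.0635). Sema3g had a peak in Ma_1456 only, of 2.31 kb.

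Between female and male lines, Epha4 and Slit3 covered less in females. Epha4, an Eph receptor that binds both ephrin types, covered 2.48 and 0.566 kb in the male Ecad lines, 0.714 kb in Ma_1456 and 0 in the other 6. Slit3 covered 2.94 and 5.08 kb in the male Ecad lines, 2.14 kb in Ma_1456 and 0 in the other 6. Both were thus absent from all 5 female lists and from Ma_1062 (exact permutation p = 0.0476 each, adjusted p = 0.375), and passed in 4 and 5 of 14 settings. Across all genes tested 12.3% were lower and 0.418% higher in female lines, against 2 and 0 of 47 members. With coverage divided by list length these shares became 6.80% and 1.06%. Sema4b, called at its promoter in all lists, covered 10.4 and 4.51 kb, 6.04 and 9.73 kb, 6.10 and 3.83 kb, and 8.43, 3.53 and 7.51 kb and had among the largest differences in the other direction, with a difference of 2.10 percentage points that did not pass (exact permutation p = 0.635).

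**Figure D5:**
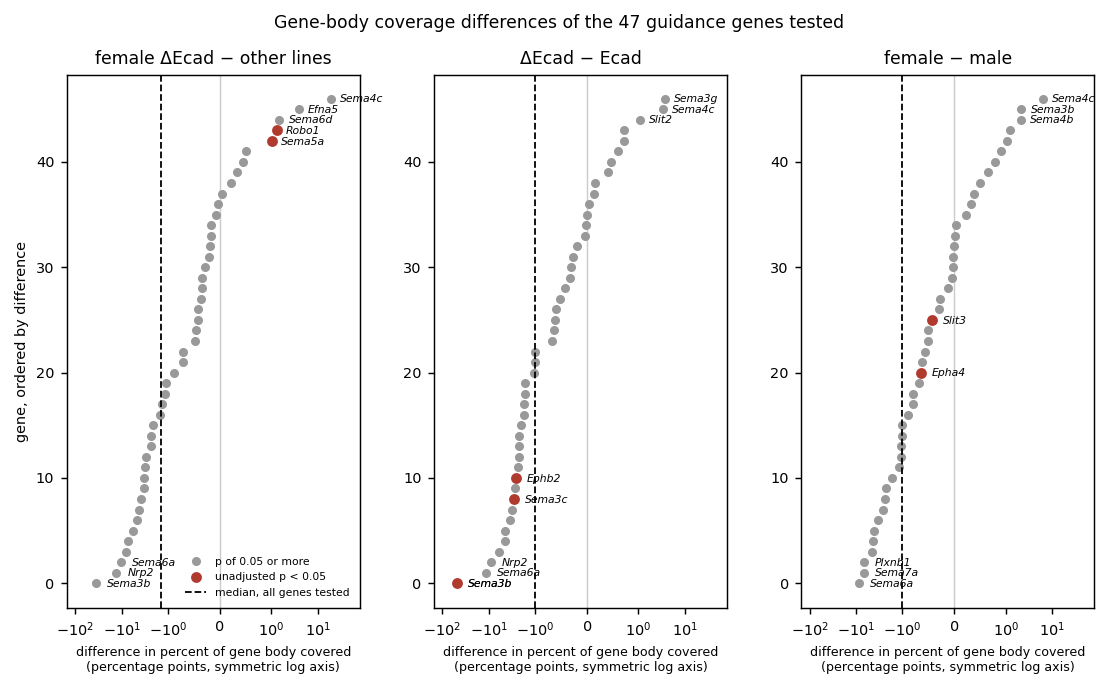
Difference in percent of gene body covered between groups for the 47 members with a peak in any list, ordered within each panel, on a symmetric log axis. Red points passed at an unadjusted exact permutation p under 0.05, and the dashed line is the median of 13171 genes (−1.43, −1.01 and −1.05 percentage points from left to right). Robo1 and Sema5a are the red points to the right in the female ΔEcad panel, and Sema3b is the red point farthest to the left in the genotype panel.

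Efna5 differed in opposite directions in the sexes. Its coverage was 83.8 and 31.7 kb in the male Ecad, 11.3 and 17.4 kb in the female Ecad, 20.3 and 9.56 kb in male ΔEcad lines, and 43.6, 42.4 and 33.6 kb in Ma_1057, Ma_1064 and Ma_1069. Every female ΔEcad line was above both female Ecad lines and every male ΔEcad line below both male Ecad lines, whereas the pooled genotype comparison did not pass (exact permutation p = 0.802). The difference between the sexes was not tested. Robo1 and Sema3a, a secreted repellent of axons, followed the same pattern, which 1.69% of all genes tested showed, and no member showed the opposite one (3.23%). Sema3a covered 24.3 and 1.11 kb, 2.03 and 2.35 kb, 0.584 and 0 kb, and 6.5, 4.43 and 10.6 kb. In the promoter region and in 4 intronic regions of Efna5 all 9 lists had a peak, so the lines differed in the length and number of peaks around shared ones. Plxnc1 covered 16.6 and 21.7 kb, 15.0 and 5.54 kb, 12.2 and 13.3 kb, and 11.5, 11.4 and 4.24 kb, with its strongest peaks among the strongest of their lists. Plxnd1 covered 2.38 and 0 kb, 1.83 and 1.02 kb, 0 and 1.97 kb, and 0, 1.00 and 0 kb, and 4 of the lists had no peak on the gene itself. Sema3e, its ligand, covered 1.86 and 9.24 kb, 3.54 and 2.23 kb, 3.98 and 1.89 kb, and 1.78, 1.5 and 0 kb. Sema4f covered 3.22 kb in Ma_1007, 1.5 and 1.77 kb in the female Ecad lines, 1.27 kb in Ma_1456, 0.699 kb in Ma_1064 and 0 in the other 4. Epha2 covered 2.70 kb in Ma_1007 and 0.943 kb in Ma_1057, Robo2 1.75 kb in Ma_1007 and 1.69 kb in Ma_1064, and Sema3f 1.23 kb in Ma_1007, with 0 in the other lines. Ma_1007 was the line these 4 genes shared.

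Of 38 further guidance genes (netrins and their receptors, repulsive guidance molecules and effectors of semaphorin, Eph and Slit-Robo signalling), 15 were called in all 9 lists and 11 in none, beside the 21.1% and 47.1% of all genes given above, and the difference from the members was not tested. The effectors of semaphorin and plexin signalling, such as Dpysl2, Dpysl3 and Fyn, were called in all lists in 8 of 15 cases, and Rgma and Rgmb in all. Of the netrins and their receptors 1 of 10 was called in all lists, Neo1, and 5 in none, and of the Eph effectors 1 of 6 was called in all lists, Nck1. None of the 38 passed the promoter test in the female ΔEcad or the genotype comparison, and Ntn4 alone was lower in female lines. Of 33 with a gene-body peak, 4, 4 and 2 were lower in the female ΔEcad, genotype and sex comparisons and none higher. Over all genes tested 20.2%, 15.1% and 12.3% were lower and 1.57%, 0.22% and 0.418% higher, and the difference from these shares was not tested.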

How the data were processed

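H3K27ac ChIP-seq peak lists of 9 melanoma lines were analysed. Per the submitters' processing notes, Bowtie2 2.4.5, MACS2 2.2.7.1 and deepTools 3.5.1.0.0 were used with GRCm38 (mm10). Peak-caller settings and the pairing with input libraries are not given in the sources used here, and the input libraries were not analysed here. As deposited by the authors, each peak has a fold enrichment, −log10 p and −log10 q values and a score that follows −log10 q, and the lowest −log10 q was 5.00. Each line was called on its own, and depth is unknown, so neither intervals nor floors are given.

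Groups were taken from the labels. A gene was called where a peak overlapped, by at least 1 bp, the 1000 bp on either side of a TSS of GENCODE vM21. Gene-body coverage is the share of the gene under peaks. Calls were compared by Fisher's exact test and coverage by the exact permutation test of the difference in means, both two-sided, over all protein-coding genes (coverage over those with a peak), with Benjamini-Hochberg adjustment over all genes tested and a threshold of 0.05 on the unadjusted p. Peaks of the 9 lists were merged into regions, and a percentile is the rank of −log10 q within a list. Genes were given by line where they passed in any comparison, were called in 1 or 8 lists, were among the 3 largest differences in each direction, or were among the 3 longest or highest in coverage. The rule for the members uses symbols only, but these families, the lists and the tests were chosen with earlier results of these data known. The test code was run on simulated data with fully separated calls and very large coverage shifts, which cannot show how smaller differences are detected. Python 3.11.15, pandas 2.3.3 and scipy 1.17.1 were used.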

Additional observations from a re-analysis of the deposited data

Results flagged for a closer look

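Coverage differences between ΔEcad and Ecad lines that ran in opposite directions in the sexes were seen for Efna5, Robo1 and Sema3a among all 60 members. Efna5 covered 25.5 kb more in female ΔEcad than in female Ecad lines on average, and in male lines the difference was −42.8 kb. For Robo1 the differences were 9.93 kb in female and −5.57 kb in male lines, and for Sema3a 4.99 and −12.4 kb. Genes were flagged by this very rule, that the lines of the genotypes do not overlap within either sex and part in opposite directions. Of all genes tested 1.69% parted in the directions of these 3 genes and 3.23% in the reverse ones. The difference between the sexes was not tested.

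Single lines stood far from the rest of their genotype for 5 genes. Among ΔEcad lines, Plxnc1 was low in Ma_1069 (4.24 kb) and Slit2 high in Ma_1456 (17.0 kb). Among Ecad lines, Sema3b was low in Ma_1181 (2.2 kb), and Ma_1007, the longest list, was high for Sema4c (9.40 kb), Sema5a (4.82 kb) and Slit2 (7.83 kb). Chance sets apart about 1 in 20 such sets, and 24 sets over the 25 genes given by line were examined, with 26 left out because a line was at 0.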

How the results depend on the processing

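Among 12 named results over 168 alternative values, 91 kept their side of the threshold, 77 did not and 0 changed direction. Robo1 and Sema3b coverage passed in all 14 alternatives and the Plxna1 promoter in 13, the exception being the use of peaks above each list's median −log10 q. Members called in all lists were 7, against 4 with a 500 bp window, 3 with the summit inside the window and 3 with peaks above each list's median −log10 q, and those called in none were 25, against 38 above that median. Promoter differences of female ΔEcad lines were 3, against 1 with the 500 bp window and 0 above that median. Those by genotype were 1, Slit2 higher, against 2 with the summit inside the window (Plxna1 and Plxnd1 lower, Slit2 not), 2 above that median (Sema3b lower, Slit2 higher) and 2 with lists cut to the 20741 peaks of the shortest (Plxna1 lower, Slit2 higher). Coverage differences of female ΔEcad lines were 2, against 5 divided by list length and 4 each above that median, at the shortest list and by the exact rank-sum test, 3 of the last lower. Those by sex were 2, Epha4 and Slit3 lower, against 1 above that median (Epha5 higher, neither of these) and 1 at the shortest list (Slit3 lower). With coding starts only, Sema3b lower took the place of Slit2 by genotype, and Efnb2 lower that of Sema7a by sex with the 500 bp window and above that median. Leaving out 1 line gave 1 to 2 (promoter) and 1 to 6 (coverage) for female ΔEcad lines, 0 to 1 and 1 to 4 by genotype, and 0 to 1 and 0 to 2 by sex, and the 6 came without Ma_1007. The causes were not tested. No paired analysis was possible because replicate numbers only name the lines. Depth could not be assessed.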
